A study of Saccharomyces cerevisiae with 10 samples.

Results

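The genes described here encode the proteasome of budding yeast, Saccharomyces cerevisiae. They are 33 subunit genes, the transcription activator gene RPN4 and the assembly factor gene UMP1, together 35 of the 6677 features in the deposited tables. The members were taken by gene name, with earlier results of these data known. By subcomplex they are 7 genes of the α ring (SCL1, PRE8, PRE9, PRE6, PUP2, PRE5 and PRE10), 7 of the β ring (PRE3, PUP1, PUP3, PRE1, PRE2, PRE7 and PRE4), 10 of the base and 9 of the lid. The base genes are RPT1 to RPT6, RPN1, RPN2, RPN10 and RPN13. The lid genes are RPN3, RPN5 to RPN9, RPN11, RPN12 and SEM1. The authors' own column of gene groups marked 32 features as proteasome, and all 32 are members here. RPT1, RPN4 and UMP1 are the 3 members that it did not mark.

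The proteasome is the protease that breaks down proteins tagged with ubiquitin. Its core particle is a barrel of stacked α and β rings, with the catalytic sites inside the β rings. The regulatory particle caps the barrel. Its base unfolds and threads substrates with a ring of ATPases, and its lid removes the ubiquitin chain. In yeast, Rpn4 binds a short promoter sequence, the proteasome-associated control element, and activates most of the subunit genes. Rpn4 is itself a rapidly degraded proteasome substrate, which closes a feedback loop between the amount of proteasome and the transcription of its genes.

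The measurement is PAR-CLIP, in which RNA crosslinked by UV light to an HTB-tagged protein is purified and sequenced. According to its design text, the study mapped RNA polymerase II (Pol II). The depletion strains carried Nab3-FRB with rapamycin, for a time not given in the sources used here, or Nrd1-FRB together with Rpb2-HTB, a tagged Pol II subunit, with 45 min of rapamycin. The control was the cassette strain without rapamycin, with titles that hold Nab_WT and a source name that holds NabCassette. Rapamycin tethers an FRB-tagged protein to an anchor outside the nucleus, and Nab3 and Nrd1 are the RNA-binding proteins of a complex that terminates transcription, above all that of short noncoding RNAs. Beyond that title and source name, what the cassette is is not stated in these sources. Also not stated are which protein carried the HTB tag in the cassette and Nab3-FRB libraries, and whether the strains resist rapamycin. All cells grew in a synthetic medium with limiting uracil. Each of the 3 groups had 2 libraries, 6 of the 10 samples in the series. The remaining 4 samples, labelled as Nab3-FRB without rapamycin and as Nab_HTB, were not analysed here. The labels do not say whether a group's libraries were separate cultures, so a p-value here reflects a spread that may be technical. Strain, depletion and rapamycin differed together in both comparisons with the cassette and cannot be told apart with these 6 libraries. The tagged protein may have differed as well.

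Values are reads per gene divided by a size factor per library, here called normalised reads, on 1 scale for the 6 libraries. They are sums over a culture, in which fewer cells with signal and less signal per cell cannot be told apart. Each library held 7395659 to 13428820 reads, and a member had between 561 reads (UMP1 in Nrd1-depleted library 1) and 7075 reads (RPN2 in cassette library 1). The NAB3 and NRD1 genes stay intact in this kind of depletion, so their own signal need not fall. Whether their signal reflects the depletion was not tested. NAB3 had 2277 and 2312 normalised reads in the Nab3-depleted libraries, 2290.0 and 2403 in the Nrd1-depleted libraries, and 2542 and 2573 in the cassette libraries. NRD1 had 7487 and 8536 in the Nab3-depleted libraries, 8805 and 8250.2 in the Nrd1-depleted libraries, and 1959 and 2103 in the cassette libraries. Every depleted library thus lay above both cassette libraries for NRD1. No annotated gene overlaps a member in the RefSeq annotation. The sources used here do not give the strand setting of the authors' counting, so antisense reads cannot be told apart from sense reads.

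The DNA before the gene start shows what most of these genes share. Windows of 300 bases, with 250 bases before and 50 bases from the first base of the annotated gene, were read from the RefSeq genome (R64, the build of the files) for 6001 protein-coding genes. The proteasome-associated control element was searched as GGTGGCAAA on both strands. It stood in the windows of 27 of the 35 members (77.1%), against 72 of the 6001 windows (1.2%). The genes with it were 6 of 7 in the α ring, 6 of 7 in the β ring, 8 of 10 in the base and 7 of 9 in the lid. The 8 members without an exact match in the window were PRE5, PUP1, RPN10, RPN13, RPN8, SEM1, UMP1 and RPN4. Variants of the 9 letters were not counted as the element. The 4 windows shown first belong to the gene with the most cassette signal per kb among those with the element in each subcomplex, and the last 2 belong to UMP1 and RPN4. They are written 5′ to 3′ on the gene's coding strand, with the element in capitals.
PUP2, α ring, chrVII:999091-999390, minus strand: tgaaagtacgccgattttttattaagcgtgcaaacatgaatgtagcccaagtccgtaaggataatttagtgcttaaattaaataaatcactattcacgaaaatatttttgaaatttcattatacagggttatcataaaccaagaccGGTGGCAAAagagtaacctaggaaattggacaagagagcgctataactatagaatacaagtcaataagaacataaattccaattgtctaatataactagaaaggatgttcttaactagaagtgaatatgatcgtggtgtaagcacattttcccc
PUP3, β ring, chrV:349297-349596, minus strand: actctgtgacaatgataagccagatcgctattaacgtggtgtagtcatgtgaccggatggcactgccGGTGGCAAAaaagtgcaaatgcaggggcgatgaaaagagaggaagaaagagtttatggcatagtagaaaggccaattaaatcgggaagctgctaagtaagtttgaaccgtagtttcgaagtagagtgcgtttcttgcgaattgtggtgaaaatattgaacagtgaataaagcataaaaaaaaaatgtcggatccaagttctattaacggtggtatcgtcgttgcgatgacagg
RPT5, base, chrXV:544779-545078, plus strand: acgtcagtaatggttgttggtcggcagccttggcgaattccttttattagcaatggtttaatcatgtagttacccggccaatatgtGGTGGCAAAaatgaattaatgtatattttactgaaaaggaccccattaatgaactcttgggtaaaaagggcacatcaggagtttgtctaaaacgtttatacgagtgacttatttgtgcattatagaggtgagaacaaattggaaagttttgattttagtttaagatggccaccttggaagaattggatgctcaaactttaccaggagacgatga
RPN5, lid, chrIV:190674-190973, plus strand: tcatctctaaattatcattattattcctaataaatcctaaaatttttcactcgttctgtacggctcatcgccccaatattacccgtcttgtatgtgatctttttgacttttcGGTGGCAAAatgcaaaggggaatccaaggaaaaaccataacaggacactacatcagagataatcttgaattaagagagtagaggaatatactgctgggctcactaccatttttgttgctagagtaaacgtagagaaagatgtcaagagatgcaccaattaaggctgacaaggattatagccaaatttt
UMP1, assembly factor, chrII:582123-582422, minus strand: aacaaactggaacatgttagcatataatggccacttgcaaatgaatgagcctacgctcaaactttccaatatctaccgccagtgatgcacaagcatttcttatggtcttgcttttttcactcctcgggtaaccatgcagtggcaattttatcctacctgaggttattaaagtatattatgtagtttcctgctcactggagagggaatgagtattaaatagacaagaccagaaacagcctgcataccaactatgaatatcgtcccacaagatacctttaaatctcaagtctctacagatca
RPN4, activator, chrIV:416659-416958, minus strand: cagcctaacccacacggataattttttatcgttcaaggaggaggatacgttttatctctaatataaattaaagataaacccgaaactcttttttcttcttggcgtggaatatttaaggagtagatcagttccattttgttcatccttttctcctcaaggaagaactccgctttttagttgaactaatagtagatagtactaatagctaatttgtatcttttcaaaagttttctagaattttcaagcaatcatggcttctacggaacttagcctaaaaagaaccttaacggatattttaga

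Each of the 27 windows held the element once, between 84 bases (RPT6) and 183 bases (PUP3) before the start. It lay on the coding strand in 19 windows and on the other strand in 8. The 4 genes shown next stand at the ends of the results, PRE8 and PRE4 with the lowest values of the α and β rings after Nab3 depletion, RPT1 with the lowest of all members after Nrd1 depletion, and PRE9 as the subunit gene that passed the test in neither. PRE9 was chosen for display after its values were seen. Each line gives the element in capitals with 10 bases on each side, on the strand that reads GGTGGCAAA.
PRE8, chrXIII:86841-86869, minus strand: agcttattaaGGTGGCAAAattgtccccg
PRE4, chrVI:249959-249987, plus strand: acgtatttaaGGTGGCAAAttctaaacca
RPT1, chrXI:174048-174076, minus strand: ttagttttcgGGTGGCAAAattcggtaat
PRE9, chrVII:761223-761251, plus strand: ttaccctgcaGGTGGCAAAaaatttatag

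**Figure D1:**
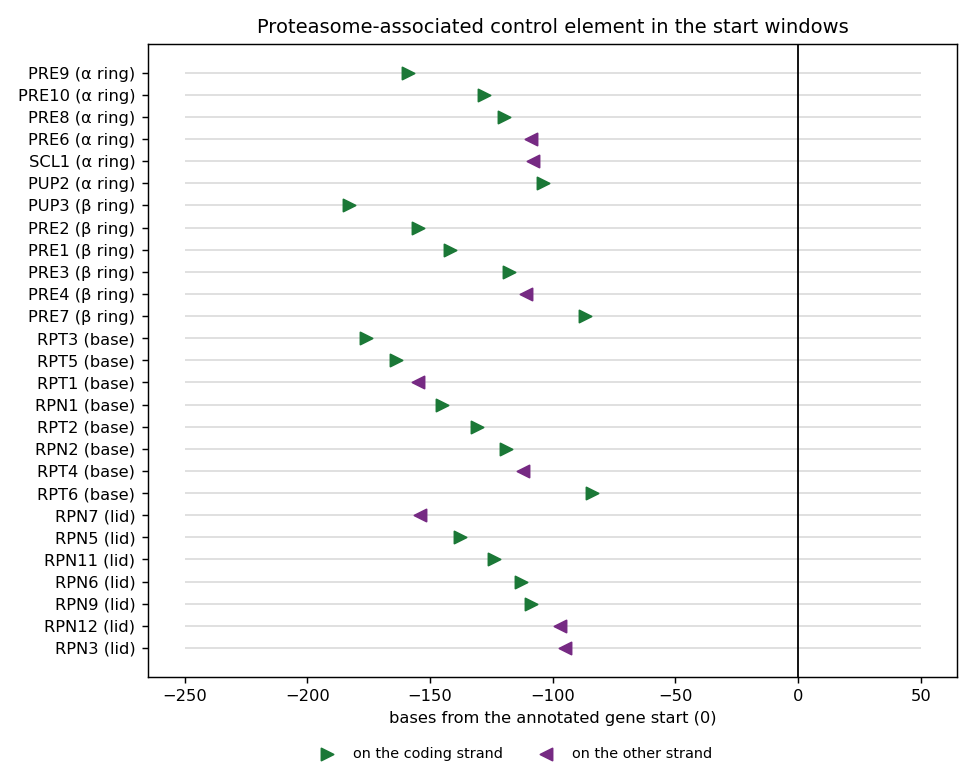
Position of the 9-letter element in the start windows of the 27 members that hold it, by subcomplex. The horizontal axis is the distance in bases from the first base of the annotated gene, and the arrow shows the strand that carries the letters. The elements lie between 183 and 84 bases before the start.

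Most proteasome genes carried less PAR-CLIP signal after either depletion. After Nab3 depletion 31 of 35 members fell and 0 rose, with a median log2 fold change of -0.31 over the 35 members, or 19.5% less signal than in the cassette libraries. Over all 6360 features tested, 18.7% fell and 21.1% rose, and the median log2 fold change was -0.0054. After Nrd1 depletion 30 of 35 members fell and 0 rose, with a median log2 fold change of -0.35, or 21.3% less signal. Of the 6347 features tested there, 17.8% fell and 17.5% rose, with a median of -0.0044. A gene is said to rise or fall when its Benjamini-Hochberg adjusted p from limma, over all features tested, was under 0.05. The 2 comparisons share the cassette libraries, so they are not independent of each other.

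Without regard to the test, both Nab3-depleted libraries lay below both cassette libraries for 33 of 35 members, against 36.3% of all features. The exceptions were PRE9 and RPN4, for which both Nab3-depleted libraries lay above both cassette libraries. Both Nrd1-depleted libraries lay below both cassette libraries for 34 of 35 members, against 36.9% of all features, and RPN4 was the member that overlapped. The members together took 0.855% and 0.844% of the reads in the Nab3-depleted libraries, 0.767% and 0.873% in the Nrd1-depleted libraries, and 1.07% and 1.04% in the cassette libraries. In the authors' deposited table, lower members numbered 30 after Nab3 depletion and 23 after Nrd1 depletion at an adjusted p under 0.05, and 0 members were higher in either. The share of all features called there was not counted, and the shares given above belong to the limma fit.

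The Nab3 counts changed little when 1 library was left out, with 28 to 31 members lower. PRE10, PUP3 and RPN13 lost their call without cassette library 1, RPN5 without cassette library 2, RPN13 without Nab3-depleted library 2 and PUP3 without Nab3-depleted library 3. The Nrd1 count fell to 10 members without cassette library 1 and also to 10 without cassette library 2, where the features called lower over the whole table fell to 265 and 319, against 1128 with all libraries. Of those members, 8 kept their call without either cassette library in turn, namely PRE2, PUP1, PUP2, RPN13, RPT1, RPT2, RPT5 and SEM1. The count was 30 without Nrd1-depleted library 1 and 34 without Nrd1-depleted library 2. When limma was run without its mean-variance trend, 28 members were lower after Nab3 depletion and 17 after Nrd1 depletion.

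The 2 Nrd1-depleted libraries stood apart from each other on these genes. Library 1 was below library 2 for 35 of 35 members, with a median log2 difference of -0.19, while over all 6330 features it was lower for 51.5%. The member median relative to the cassette mean was -0.47 in Nrd1-depleted library 1 and -0.28 in library 2. It was -0.30 in both Nab3-depleted libraries. The 2 cassette libraries stood at 0.017 and -0.017. Among the members, Nab3-depleted library 2 was below library 3 for 18 of 35 and cassette library 1 was below library 2 for 15 of 35.

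**Figure D2:**
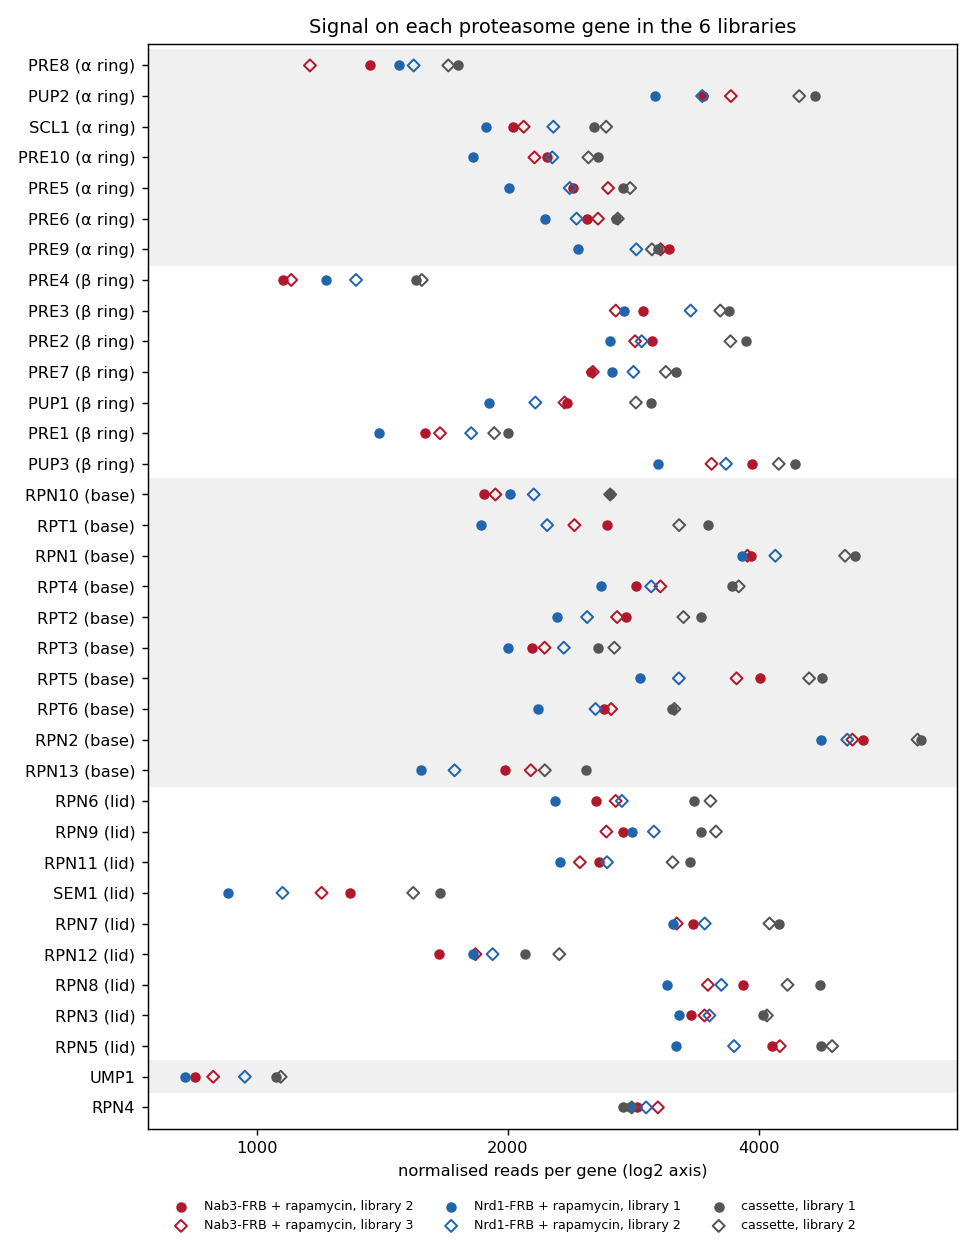
Normalised reads of the 35 members in each of the 6 libraries, on a log2 axis, grouped by subcomplex. Red marks are the Nab3-depleted, blue the Nrd1-depleted and grey the cassette libraries, with 1 mark per library. For 33 members both red marks lie left of both grey marks, and for 34 members both blue marks do.

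The α ring forms the outer rings of the core particle and its gate. Its genes had a median log2 fold change of -0.21 after Nab3 depletion, where 4 of 7 fell, and of -0.32 after Nrd1 depletion, where 6 of 7 fell. SCL1 had 2030.0 and 2090.1 normalised reads in the Nab3-depleted libraries, 1885 and 2269 in the Nrd1-depleted libraries, and 2536 and 2625 in the cassette libraries. PUP2, the α-ring gene with the most signal per length, had 3427 and 3704 normalised reads in the Nab3-depleted libraries, 3002 and 3422 in the Nrd1-depleted libraries, and 4669 and 4474 in the cassette libraries. Every depleted library lay below both cassette libraries for these 2 genes. The log2 fold change of SCL1 was -0.32 ± 0.05 (SE, adjusted p = 0.000227) for Nab3 depletion and -0.32 ± 0.09 (SE, adjusted p = 0.0319) for Nrd1 depletion. For PUP2 it was -0.36 ± 0.06 (SE, adjusted p = 0.000138) for Nab3 depletion and -0.51 ± 0.08 (SE, adjusted p = 0.00361) for Nrd1 depletion. PUP2 thus had the lowest value of the ring after Nrd1 depletion.

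PRE8 had 1366 and 1158 normalised reads after Nab3 depletion, 1480.4 and 1543 after Nrd1 depletion, and 1741 and 1698 in the cassette libraries. It was the α-ring gene with the lowest value after Nab3 depletion, at -0.45 ± 0.07 (SE, adjusted p = 0.000192), and the one nearest to the cassette after Nrd1 depletion, at -0.19 ± 0.06 (SE, adjusted p = 0.0461). Its 2 Nab3-depleted libraries lay below both Nrd1-depleted libraries. PRE10 had 2229 and 2153 normalised reads after Nab3 depletion, 1818 and 2262 after Nrd1 depletion, and 2569.8 and 2499 in the cassette libraries. It fell by a log2 value of 0.21 after Nab3 depletion (adjusted p = 0.00599) and fell by 0.32 after Nrd1 depletion (adjusted p = 0.0437), and in each group its values were below both cassette values.

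PRE5 and PRE6 did not pass the test after Nab3 depletion and did after Nrd1 depletion. PRE5 had 2396 and 2638 normalised reads with Nab3 depleted and 2009 and 2374 with Nrd1 depleted, against 2747 and 2804 in the cassette libraries. PRE6 had 2487 and 2566 normalised reads with Nab3 depleted and 2218 and 2419 with Nrd1 depleted, against 2695 and 2711 in the cassette libraries. After Nab3 depletion the log2 fold changes were -0.14 for PRE5 (adjusted p = 0.0637) and -0.10 for PRE6 (adjusted p = 0.153), with both Nab3-depleted libraries below both cassette libraries. After Nrd1 depletion PRE5 stood at -0.35 ± 0.08 (SE, adjusted p = 0.019) and PRE6 at -0.22 ± 0.06 (SE, adjusted p = 0.0317), and every Nrd1-depleted library was below both cassette libraries. The difference between depletions was not past the threshold for either gene (adjusted p = 0.115 for PRE5 and 0.173 for PRE6).

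PRE9 encodes the only core subunit that yeast can live without. It had 3124 and 3051 normalised reads with Nab3 depleted and 2430.3 and 2853 with Nrd1 depleted, against 3027 and 2978 in the cassette libraries. The Nab3-depleted libraries were the highest of the 6, and the Nrd1-depleted libraries were the lowest. Neither comparison passed the test, with log2 fold changes of 0.04 ± 0.05 after Nab3 depletion (adjusted p = 0.566) and -0.19 ± 0.08 after Nrd1 depletion (adjusted p = 0.111). The difference between the depletions, 0.23 ± 0.08, had an adjusted p of 0.0619. PRE9 had 3974 normalised reads per kb in the Nab3-depleted, 3400.0 in the Nrd1-depleted and 3864 in the cassette libraries, above the cassette median of the subunit genes, 3290.

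The β ring holds the proteolytic sites. Its genes had a median log2 fold change of -0.31 after Nab3 depletion, where 7 of 7 fell, and of -0.31 after Nrd1 depletion, where 5 of 7 fell. The 3 catalytic subunits are Pre3 with caspase-like, Pup1 with trypsin-like and Pre2 with chymotrypsin-like activity. PRE3 had 2909 and 2695 normalised reads in the Nab3-depleted libraries, 2758 and 3315 in the Nrd1-depleted libraries, and 3684 and 3597 in the cassette libraries. PUP1 had 2359 and 2339.8 normalised reads in the Nab3-depleted libraries, 1899.8 and 2158 in the Nrd1-depleted libraries, and 2974 and 2849.5 in the cassette libraries. PRE2 had 2983 and 2843 normalised reads in the Nab3-depleted libraries, 2655 and 2895 in the Nrd1-depleted libraries, and 3861 and 3700.0 in the cassette libraries. All depleted libraries lay below both cassette libraries for the 3 genes.

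After Nab3 depletion the 3 catalytic genes fell, with log2 fold changes of -0.38 for PRE3 (adjusted p = 7.49e-05), -0.31 for PUP1 (adjusted p = 0.000306) and -0.38 for PRE2 (adjusted p = 6.05e-05). After Nrd1 depletion PUP1 had the lowest value of the ring, -0.52 ± 0.07 (SE, adjusted p = 0.00287), and PRE2 stood at -0.45 ± 0.07 (SE, adjusted p = 0.00329). PRE3 was at -0.27 there, with an adjusted p of 0.0546, and its Nrd1-depleted library 2 lay nearer to the cassette than library 1. PUP1 is also the β-ring gene without the 9-letter element in its window.

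The remaining β-ring genes encode subunits without a catalytic site of their own. PRE4 had 1076 and 1099.9 normalised reads after Nab3 depletion, 1212 and 1316 after Nrd1 depletion, and 1551 and 1578 in the cassette libraries. Its Nab3-depleted libraries were the lowest, its Nrd1-depleted libraries lay between, and its cassette libraries were the highest. The log2 fold change was -0.52 ± 0.06 (SE, adjusted p = 7.47e-06) for Nab3 depletion, the lowest of the 35 members, and -0.31 ± 0.07 (SE, adjusted p = 0.0124) for Nrd1 depletion. PRE4 also had the lowest signal per length of the ring, with 1358 normalised reads per kb in the Nab3-depleted, 1577 in the Nrd1-depleted and 1953 in the cassette libraries.

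PUP3 had 3926 and 3512 normalised reads after Nab3 depletion, 3032 and 3654 after Nrd1 depletion, and 4421 and 4227 in the cassette libraries. PUP3 had the most signal per length of the subunit genes, 6018 normalised reads per kb in the Nab3-depleted, 5410 in the Nrd1-depleted and 6997 in the cassette libraries. It fell after both depletions, by 0.22 on the log2 scale after Nab3 depletion, the smallest fall of the ring (adjusted p = 0.00945), and fell by 0.38 after Nrd1 depletion (adjusted p = 0.0199). PRE7 had 2521 and 2529.8 normalised reads after Nab3 depletion, 2667 and 2830.2 after Nrd1 depletion, and 3182 and 3095 in the cassette libraries. Its 2 Nab3-depleted libraries nearly coincided and were the lowest, and its log2 fold changes were -0.31 after Nab3 depletion (adjusted p = 0.000224) and -0.19 after Nrd1 depletion (adjusted p = 0.0423). PRE1 had 1593 and 1659 normalised reads after Nab3 depletion, 1400.0 and 1808 after Nrd1 depletion, and 2002 and 1927 in the cassette libraries. Its Nrd1-depleted libraries were spread more widely than the other groups, and it fell by 0.27 after Nab3 depletion (adjusted p = 0.00148), while its log2 fold change of -0.30 after Nrd1 depletion had an adjusted p of 0.0755. The difference between depletions was not past the threshold for PRE3 (adjusted p = 0.385) or PRE1 (adjusted p = 0.86).

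The base docks on the core particle. All 10 of its genes fell after each depletion, with a median log2 fold change of -0.28 after Nab3 depletion and -0.43 after Nrd1 depletion. The 6 ATPases Rpt1 to Rpt6 form its ring. RPT1 had 2629.9 and 2404 normalised reads in the Nab3-depleted libraries, 1860.4 and 2230.1 in the Nrd1-depleted libraries, and 3475 and 3211 in the cassette libraries. RPT5 had 4014 and 3762 normalised reads in the Nab3-depleted libraries, 2885 and 3208 in the Nrd1-depleted libraries, and 4758 and 4598 in the cassette libraries. In both genes the Nrd1-depleted libraries were the lowest and the Nab3-depleted libraries lay between them and the cassette, with no overlap of the 3 groups. RPT1 had a log2 fold change of -0.41 ± 0.06 (SE, adjusted p = 8.35e-05) after Nab3 depletion, and after Nrd1 depletion the lowest of the 35 members, -0.71 ± 0.09 (SE, adjusted p = 0.00216). For RPT5 it was -0.27 ± 0.05 (SE, adjusted p = 0.00125) after Nab3 depletion and -0.62 ± 0.07 (SE, adjusted p = 0.00123) after Nrd1 depletion.

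RPT2 had 2775 and 2705 normalised reads after Nab3 depletion, 2293 and 2490.3 after Nrd1 depletion, and 3412 and 3249 in the cassette libraries. RPT6 had 2612 and 2661 normalised reads after Nab3 depletion, 2175 and 2549 after Nrd1 depletion, and 3152 and 3169 in the cassette libraries. For both genes the Nrd1-depleted libraries were the lowest and the cassette libraries the highest. Log2 fold changes after Nab3 depletion were -0.28 for RPT2 (adjusted p = 0.000701) and -0.26 for RPT6 (adjusted p = 0.000949). After Nrd1 depletion they were -0.48 for RPT2 (adjusted p = 0.00253) and -0.42 for RPT6 (adjusted p = 0.00823).

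RPT3 had 2139 and 2214 normalised reads with Nab3 depleted and 2002 and 2335 with Nrd1 depleted, against 2568 and 2685 in the cassette libraries. RPT4 had 2853 and 3049 normalised reads with Nab3 depleted and 2587 and 2972 with Nrd1 depleted, against 3711 and 3786 in the cassette libraries. The depleted libraries of both groups were interleaved below the cassette libraries for these genes. RPT3 was at -0.27 ± 0.05 (SE, adjusted p = 0.0011) after Nab3 depletion, and after Nrd1 depletion it was the base gene nearest to the cassette, at -0.28 ± 0.08 (SE, adjusted p = 0.0352). RPT4 stood at -0.35 ± 0.05 (SE, adjusted p = 0.000141) after Nab3 depletion and at -0.43 ± 0.08 (SE, adjusted p = 0.00607) after Nrd1 depletion.

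RPN1 and RPN2 encode the large scaffold subunits of the base. RPN1 had 3915 and 3878 normalised reads in the Nab3-depleted libraries, 3819 and 4188 in the Nrd1-depleted libraries, and 5224 and 5078 in the cassette libraries. RPN2 had 5339.9 and 5181 normalised reads in the Nab3-depleted libraries, 4747 and 5108 in the Nrd1-depleted libraries, and 6256 and 6203 in the cassette libraries. The depleted libraries did not overlap the cassette libraries for either gene, and both genes fell. Their log2 fold changes after Nab3 depletion were -0.40 for RPN1 (adjusted p = 2.14e-05) and -0.24 for RPN2 (adjusted p = 0.00177), and after Nrd1 depletion -0.36 (adjusted p = 0.00799) and -0.34 (adjusted p = 0.00994). RPN1 had the least signal per length of the subunit genes, 1307 normalised reads per kb in the Nab3-depleted, 1343 in the Nrd1-depleted and 1727 in the cassette libraries.

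RPN10 and RPN13 encode ubiquitin receptors, and neither has the 9-letter element in its window. RPN10 had 1873 and 1933 normalised reads after Nab3 depletion, 2015 and 2149 after Nrd1 depletion, and 2650.2 and 2654 in the cassette libraries. RPN13 had 1983 and 2132 normalised reads after Nab3 depletion, 1574 and 1727 after Nrd1 depletion, and 2485 and 2216 in the cassette libraries. The cassette libraries were the highest in both genes. The 2 depleted groups swapped places, with the Nab3-depleted libraries lowest for RPN10 and the Nrd1-depleted libraries lowest for RPN13. For RPN10 the difference between the depletions was not past the threshold (adjusted p = 0.142). RPN10 had the lowest value of the base after Nab3 depletion, -0.48 ± 0.05 (SE, adjusted p = 5.65e-06), and stood at -0.35 ± 0.06 (SE, adjusted p = 0.00521) after Nrd1 depletion. RPN13 was the base gene nearest to the cassette after Nab3 depletion, at -0.19 ± 0.06 (SE, adjusted p = 0.0284), and its 2 cassette libraries differed more from each other than those of RPN10. After Nrd1 depletion it was at -0.51 ± 0.08 (SE, adjusted p = 0.00382). The fall of RPN13 after Nab3 depletion was not past the threshold in the authors' deposited table or with DESeq2 on the recovered reads.

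All 9 lid genes fell after each depletion as well, with a median log2 fold change of -0.36 after Nab3 depletion and -0.39 after Nrd1 depletion. RPN11 encodes the deubiquitinase that cuts the ubiquitin chain from the substrate, and RPN8 its partner subunit. RPN11 had 2577 and 2441 normalised reads in the Nab3-depleted libraries, 2313 and 2631 in the Nrd1-depleted libraries, and 3308 and 3153 in the cassette libraries. RPN8 had 3827 and 3476 normalised reads in the Nab3-depleted libraries, 3107 and 3608 in the Nrd1-depleted libraries, and 4735 and 4331 in the cassette libraries. For both genes every depleted library lay below both cassette libraries, with the depleted groups overlapping each other. RPN11 fell by 0.36 on the log2 scale after Nab3 depletion (adjusted p = 9.72e-05) and fell by 0.39 after Nrd1 depletion (adjusted p = 0.00856). RPN8 fell by 0.31 after Nab3 depletion (adjusted p = 0.00101) and fell by 0.44 after Nrd1 depletion (adjusted p = 0.00967).

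SEM1 encodes the small acidic subunit of the lid and is also part of other complexes. It had 1295 and 1196 normalised reads with Nab3 depleted and 924 and 1074 with Nrd1 depleted, against 1659 and 1541 in the cassette libraries. The Nrd1-depleted libraries were the lowest and the cassette libraries the highest, with no overlap of the 3 groups. SEM1 had a log2 fold change of -0.36 ± 0.06 (SE, adjusted p = 0.000482) after Nab3 depletion, and after Nrd1 depletion the lowest of the lid, -0.68 ± 0.09 (SE, adjusted p = 0.00214).

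The other 6 lid genes encode its scaffold subunits. RPN5 had 4151 and 4239.9 normalised reads after Nab3 depletion, 3180.0 and 3737 after Nrd1 depletion, and 4749 and 4899 in the cassette libraries. RPN6 had 2549 and 2694 normalised reads after Nab3 depletion, 2278 and 2741 after Nrd1 depletion, and 3348 and 3501 in the cassette libraries. The Nrd1-depleted libraries of RPN5 lay below its Nab3-depleted libraries, while the 2 groups overlapped for RPN6. RPN5 was the lid gene nearest to the cassette after Nab3 depletion, at -0.20 ± 0.05 (SE, adjusted p = 0.00624), and stood at -0.48 ± 0.08 (SE, adjusted p = 0.00606) after Nrd1 depletion. RPN6 had the lowest value of the lid after Nab3 depletion, -0.39 ± 0.05 (SE, adjusted p = 5.63e-05), and stood at -0.45 ± 0.09 (SE, adjusted p = 0.00962) after Nrd1 depletion.

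RPN12 had 1653 and 1829 normalised reads with Nab3 depleted and 1818 and 1918 with Nrd1 depleted, against 2098 and 2306 in the cassette libraries. Its 2 Nab3-depleted libraries differed from each other by more than its 2 Nrd1-depleted libraries did. RPN12 fell by 0.34 on the log2 scale after Nab3 depletion (adjusted p = 0.000857), and after Nrd1 depletion it was the lid gene nearest to the cassette, at -0.24 ± 0.07 (SE, adjusted p = 0.0345). RPN9 had 2753 and 2626 normalised reads with Nab3 depleted and 2818 and 2995 with Nrd1 depleted, against 3407 and 3554 in the cassette libraries. It had the Nab3-depleted libraries lowest, and its log2 fold changes were -0.37 after Nab3 depletion (adjusted p = 6.81e-05) and -0.26 after Nrd1 depletion (adjusted p = 0.0167).

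RPN7 had 3338 and 3190.0 normalised reads with Nab3 depleted and 3157 and 3446 with Nrd1 depleted, against 4229.6 and 4121 in the cassette libraries. RPN3 had 3316 and 3443 normalised reads with Nab3 depleted and 3211 and 3491 with Nrd1 depleted, against 4045 and 4092 in the cassette libraries. Both genes had depleted libraries that overlapped each other and lay below the cassette. After Nab3 depletion RPN7 fell by 0.36 (adjusted p = 8.28e-05) and RPN3 by 0.27 (adjusted p = 0.00083). After Nrd1 depletion RPN7 fell by 0.34 (adjusted p = 0.00855) and RPN3 by 0.28 (adjusted p = 0.0153).

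**Figure D3:**
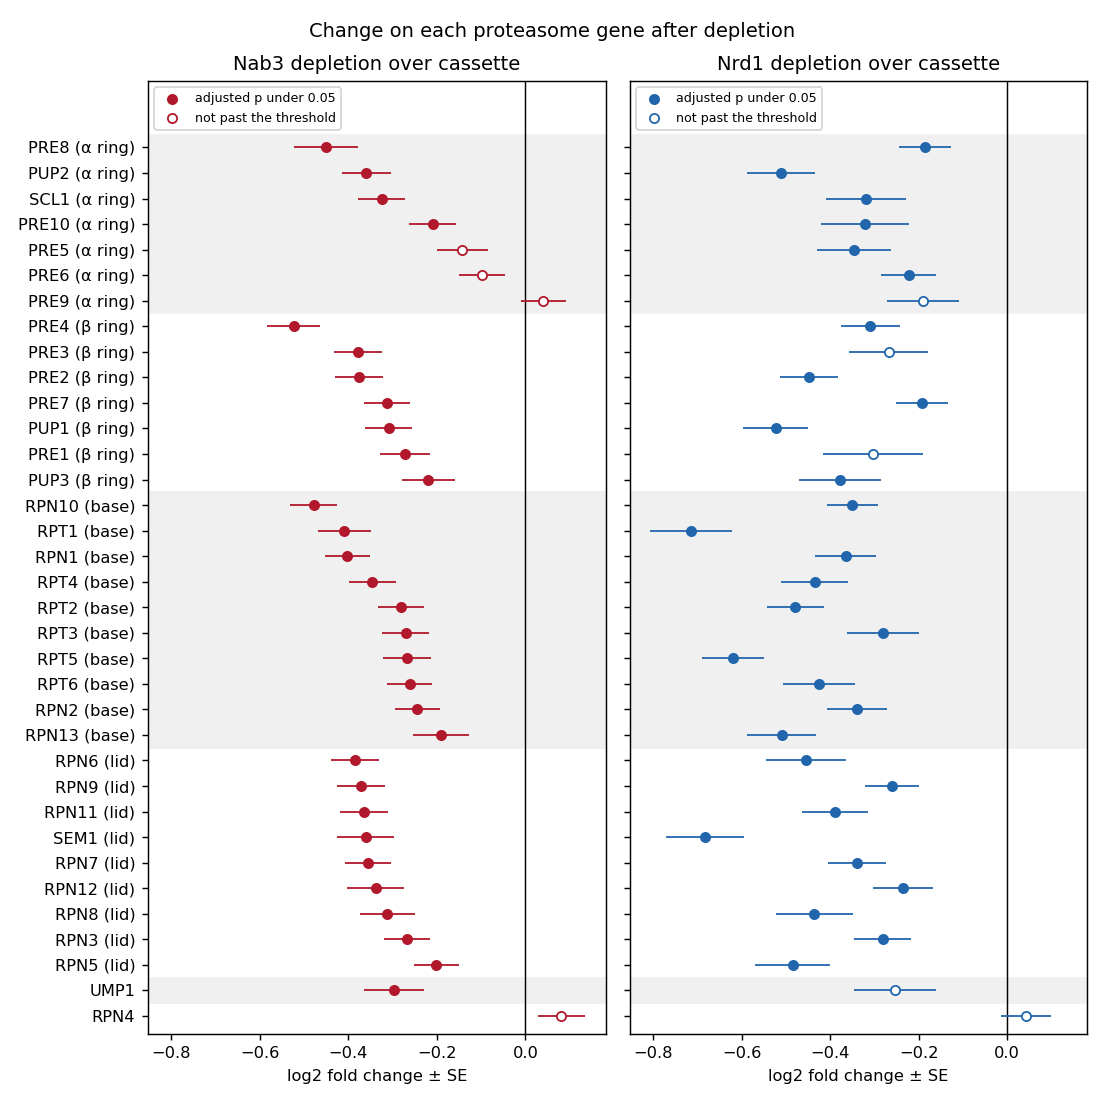
Log2 fold change of each member with its standard error, for Nab3 depletion over cassette on the left and Nrd1 depletion over cassette on the right. Filled marks had an adjusted p under 0.05, which 31 members reached on the left and 30 on the right, all of them below 0.

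UMP1 encodes the chaperone of core particle assembly that the finished particle itself degrades. It had 842 and 887 normalised reads in the Nab3-depleted libraries, 819.8 and 968 in the Nrd1-depleted libraries, and 1056 and 1068 in the cassette libraries. The depleted libraries were below the cassette libraries in both groups. UMP1 fell after Nab3 depletion, -0.30 ± 0.07 (SE, adjusted p = 0.00268), and its value after Nrd1 depletion was -0.25 ± 0.09 with an adjusted p of 0.0707. The difference between the depletions had an adjusted p of 0.759. Its window holds no exact match to the element letters searched.

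RPN4 encodes the activator of the subunit genes. It had 2858 and 3028 normalised reads in the Nab3-depleted libraries, 2803 and 2931 in the Nrd1-depleted libraries, and 2747 and 2817 in the cassette libraries. The Nab3-depleted libraries lay above both cassette libraries and the Nrd1-depleted libraries overlapped them. Its log2 fold changes, 0.08 ± 0.05 after Nab3 depletion (adjusted p = 0.25) and 0.04 ± 0.06 after Nrd1 depletion (adjusted p = 0.579), were not past the threshold. RPN4 was the member with the highest value in both comparisons. These values are PAR-CLIP signal on the gene and do not measure the amount of Rpn4 protein.

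Between the subcomplexes the medians differed less than between the 2 Nrd1-depleted libraries. Relative to the cassette mean, the α-ring median was -0.21 and -0.23 in the Nab3-depleted libraries and -0.45 and -0.16 in the Nrd1-depleted libraries. The β-ring median was -0.32 in both Nab3-depleted libraries, and -0.49 and -0.24 in the Nrd1-depleted libraries. The base median was -0.29 and -0.30 in the Nab3-depleted libraries and -0.54 and -0.32 in the Nrd1-depleted libraries. In each of the 4 depleted libraries the α ring was the subcomplex whose median lay nearest to the cassette, and in both Nrd1-depleted libraries the base lay farthest. The median fitted log2 fold change after Nrd1 depletion gave another order, with the β ring (-0.309) slightly nearer than the α ring (-0.319). The lid median was -0.32 and -0.38 in the Nab3-depleted libraries and -0.48 and -0.30 in the Nrd1-depleted libraries, and it lay farthest in both Nab3-depleted libraries. These medians rest on 7 to 10 genes each and are given as a description, with no test between subcomplexes.

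**Figure D4:**
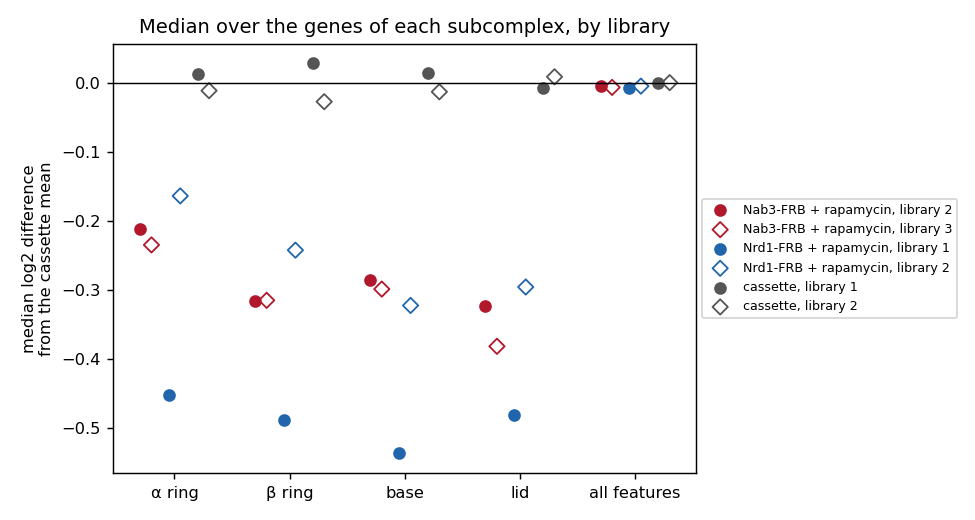
Median log2 difference from the cassette mean over the genes of each subcomplex and over all features, with 1 mark per library. The Nab3-depleted libraries lie close together for each subcomplex, Nrd1-depleted library 1 lies below library 2 for each, and the medians of all features lie within 0.01 of 0.

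The members differed among themselves in level by more than they differed between groups. Per length, the subunit genes ranged 4.61-fold in the Nab3-depleted libraries, 4.03-fold in the Nrd1-depleted libraries and 4.05-fold in the cassette libraries. The median per kb of the subunit genes was 2714 normalised reads in the Nab3-depleted, 2580.2 in the Nrd1-depleted and 3290 in the cassette libraries. All 35 members lay above the median of 6330 features in the cassette libraries, which was 963 normalised reads per kb. The 4 subunit genes with the most cassette signal per kb were PUP3 (6997), SEM1 (5925), PUP2 (5838) and RPN13 (4990), 1 from each subcomplex. Those with the least were RPN1 (1727), PRE4 (1953), RPT3 (2041) and RPN2 (2195). The first 4 genes are 618 (PUP3), 270 (SEM1), 783 (PUP2) and 471 bases long (RPN13). The last 4 are 2982 (RPN1), 801 (PRE4), 1287 (RPT3) and 2838 bases long (RPN2). The part of gene length in these levels was not tested.

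**Figure D5:**
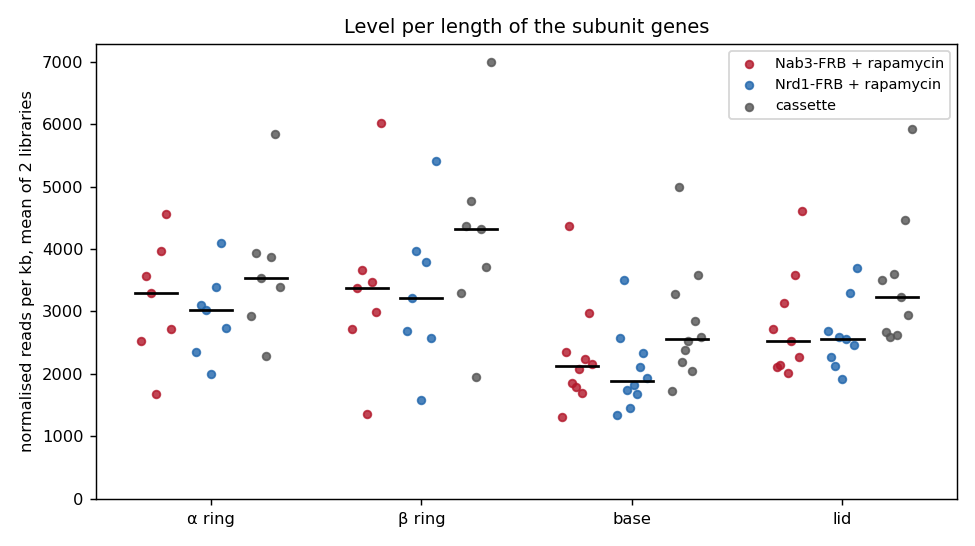
Normalised reads per kb of gene length for each subunit gene, as the mean of 2 libraries, in the Nab3-depleted, Nrd1-depleted and cassette groups. Each point is 1 gene and each black line the median of the subcomplex. In the cassette libraries the β ring has the highest median, 4323, and the base the lowest, 2565.

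The 2 depletions were then set against each other in 1 model with all 6 libraries. After Nab3 depletion relative to Nrd1 depletion 2 members were lower and 5 higher, while 8.91% of 6385 features were lower and 12.1% higher. The median log2 difference over the members was 0.07, against 0.034 with upper-quartile scaling and 0.041 with scaling to the table total. Over all features the split was 569 lower and 772 higher, against 811 lower and 633 higher with upper-quartile scaling and 722 lower and 626 higher with scaling to the table total. Of the 7 members, PRE8 (log2 difference -0.26 ± 0.08, adjusted p = 0.0481) and PRE4 (-0.21 ± 0.07, adjusted p = 0.0481) were lower after Nab3 depletion than after Nrd1 depletion. The 5 that were higher after Nab3 depletion were RPT5 (0.35 ± 0.07, adjusted p = 0.0089), SEM1 (0.32 ± 0.09, adjusted p = 0.0312), RPN13 (0.32 ± 0.08, adjusted p = 0.0206), RPT1 (0.30 ± 0.09, adjusted p = 0.0437) and RPN5 (0.28 ± 0.08, adjusted p = 0.0333). Over all 14 core members the median difference was 0.09, and 5 of the 14 were below 0. For these 7 genes the values of every library are given with the subcomplexes above.

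These counts depended on single libraries. Leaving out any 1 library took the call from some of the 7 members. The median log2 difference over the members was 0.19 without Nrd1-depleted library 2 and -0.011 without Nrd1-depleted library 1. It was 0.074 without Nab3-depleted library 2 and 0.063 without Nab3-depleted library 3. Without cassette library 1 or cassette library 2 it stayed at 0.071. Both Nab3-depleted libraries lay above both Nrd1-depleted libraries for 13 members and below them for 5, and the groups overlapped for 17. The same share over all features was not computed, so these 3 counts cannot be read as particular to the members. PRE4 was not past the threshold with TMM scaling or DESeq2, PRE8 with edgeR or DESeq2, RPT1 with upper-quartile scaling, and RPT1, RPN5 and SEM1 with scaling to the table total. Without the mean-variance trend only RPT5 of the 7 was past it.

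Subunit genes fell both with and without the element in their window. After Nab3 depletion 25 of 27 members with the element fell, with a median log2 fold change of -0.32, and 5 of the 6 subunit genes without it fell, with a median of -0.31. After Nrd1 depletion 24 of 27 members with the element fell, with a median of -0.34, and 6 of the 6 subunit genes without it fell, with a median of -0.47. No test was made between these sets of genes. The Nab3 motif TCTTG stood on the coding strand in 10 of 35 member windows (28.6%), against 31.5% of all windows. At least 1 of the Nrd1 motifs GTAA and GTAG stood in 33 of 35 (94.3%), against 88.4% of all windows. A match describes the letters only and not binding.

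Other genes with the element in their window were tested beside the members. Of 44 such genes, 20 fell and 5 rose after Nab3 depletion, with a median log2 fold change of -0.18. After Nrd1 depletion 19 fell and 4 rose, with a median of -0.25, and the number that fell was 11 without cassette library 1 and 11 without cassette library 2. Among all other genes with a window but without the element, 18.9% of 5690 tested fell after Nab3 depletion and 18.5% of 5685 after Nrd1 depletion. Of the 44 genes, 7 are divergent neighbours of a member and can share the stretch of DNA that holds the element. Of these 7, 4 fell and 0 rose in each comparison. The 3 described next were chosen after their values were seen. ALG13, which encodes a subunit of an enzyme of protein glycosylation and faces RPT6 across 265 bases, fell by 0.72 on the log2 scale after Nab3 depletion (adjusted p = 2.76e-06) and fell by 0.67 after Nrd1 depletion (adjusted p = 0.00361). MPO1, which faces SCL1 across 297 bases, fell by 0.34 after Nab3 depletion (adjusted p = 0.000616) and fell by 0.44 after Nrd1 depletion (adjusted p = 0.00335). GCD1, which encodes a translation initiation factor subunit and faces RPT4 across 275 bases, had log2 fold changes of -0.06 (adjusted p = 0.38) after Nab3 depletion and 0.11 (adjusted p = 0.192) after Nrd1 depletion.

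Genes that assemble or modify the proteasome moved in both directions. Of 15 assembly and accessory genes, 5 fell and 2 rose after Nab3 depletion, with a median log2 fold change of -0.13. After Nrd1 depletion 6 fell and 1 rose, with a median of -0.19. Shares over all features were 18.7% lower and 21.1% higher after Nab3 depletion, and 17.8% lower and 17.5% higher after Nrd1 depletion. ECM29, which encodes a protein that holds core and regulatory particle together and whose window holds the element, had 2610.3 and 2557 normalised reads in the Nab3-depleted libraries, 2483 and 2774 in the Nrd1-depleted libraries, and 3518 and 3348 in the cassette libraries. BLM10, which encodes an alternative cap of the core particle, had 3245 and 3256 normalised reads in the Nab3-depleted libraries, 3936 and 3462 in the Nrd1-depleted libraries, and 2696 and 2801 in the cassette libraries. ECM29 lay below the cassette and BLM10 above it in every depleted library. ECM29 fell after Nab3 depletion, -0.41 ± 0.05 (SE, adjusted p = 2.47e-05), and after Nrd1 depletion, -0.39 ± 0.07 (SE, adjusted p = 0.0072). BLM10 rose after Nab3 depletion, 0.24 ± 0.05 (SE, adjusted p = 0.00184), and after Nrd1 depletion, 0.43 ± 0.07 (SE, adjusted p = 0.00606).

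TMA17, also called ADC17, encodes a stress-induced chaperone for the assembly of the base. It had 1277 and 1403 normalised reads after Nab3 depletion, 647 and 689 after Nrd1 depletion, and 944 and 1007 in the cassette libraries. The Nab3-depleted libraries lay above the cassette and the Nrd1-depleted libraries below it. TMA17 rose after Nab3 depletion, 0.46 ± 0.07 (SE, adjusted p = 0.000107), and fell after Nrd1 depletion, -0.55 ± 0.08 (SE, adjusted p = 0.00337), and the difference between the depletions was 1.00 ± 0.08, adjusted p = 0.000153. SPG5, a regulator of the proteasome known from stationary phase, had 1257 and 1318 normalised reads after Nab3 depletion, 836 and 883 after Nrd1 depletion, and 1256 and 1276 in the cassette libraries. Its Nab3-depleted libraries stood at the cassette level, with a log2 fold change of 0.02 (adjusted p = 0.785), and it fell after Nrd1 depletion, -0.56 ± 0.07 (SE, adjusted p = 0.00172). ADD66, which encodes a chaperone of core assembly, fell by 0.30 after Nab3 depletion (adjusted p = 0.000522) and fell by 0.41 after Nrd1 depletion (adjusted p = 0.00249). FUB1, which encodes a proteasome-binding protein, fell by 0.21 (adjusted p = 0.0352) and fell by 0.34 (adjusted p = 0.0244) in the same 2 comparisons.

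The ubiquitin genes, which tag and deliver substrates, moved in both directions, and more of them fell than rose. Of 30 genes, 12 fell and 2 rose after Nab3 depletion, with a median log2 fold change of -0.12. After Nrd1 depletion 9 fell and 3 rose, with a median of -0.14. Over all features tested, 18.7% fell and 21.1% rose after Nab3 depletion, and 17.8% fell and 17.5% rose after Nrd1 depletion. CDC48, which encodes the ATPase that extracts ubiquitin-tagged proteins, and UBI4, the stress-induced polyubiquitin gene, both have the element in their window. CDC48 had 5465 and 5227 normalised reads in the Nab3-depleted libraries, 4336 and 4853 in the Nrd1-depleted libraries, and 7130.1 and 7154 in the cassette libraries. UBI4 had 5667 and 5922 normalised reads in the Nab3-depleted libraries, 3143 and 3977 in the Nrd1-depleted libraries, and 6225 and 6544 in the cassette libraries. The depleted libraries of both genes lay below the cassette libraries, and the Nrd1-depleted libraries were the lowest. CDC48 fell after Nab3 depletion, -0.42 ± 0.05 (SE, adjusted p = 2.1e-05), and after Nrd1 depletion, -0.64 ± 0.08 (SE, adjusted p = 0.0016). UBI4 had a log2 fold change of -0.14 after Nab3 depletion (adjusted p = 0.055) and fell after Nrd1 depletion, -0.85 ± 0.11 (SE, adjusted p = 0.00212). UBI4 shares its repeats with the other ubiquitin genes, and the sources used here do not give how such reads were counted, so its values are uncertain.

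SAN1 encodes a ubiquitin ligase for misfolded nuclear proteins. It had 1953 and 1993 normalised reads with Nab3 depleted and 2420.1 and 2339 with Nrd1 depleted, against 1486 and 1432 in the cassette libraries. It rose after Nab3 depletion, 0.44 ± 0.06 (SE, adjusted p = 2.5e-05), and after Nrd1 depletion, 0.71 ± 0.06 (SE, adjusted p = 0.00035). RAD23, which encodes a shuttle for ubiquitin-tagged proteins, fell by 0.52 after Nab3 depletion (adjusted p = 2.71e-05) and fell by 0.27 after Nrd1 depletion (adjusted p = 0.0281). UBC5, a ubiquitin-conjugating enzyme gene with a close relative in UBC4, fell by 0.36 after Nab3 depletion (adjusted p = 0.000472) and fell by 0.53 after Nrd1 depletion (adjusted p = 0.00352). RAD6, another ubiquitin-conjugating enzyme gene, had a log2 fold change of -0.14 after Nab3 depletion (adjusted p = 0.102) and fell by 0.46 after Nrd1 depletion (adjusted p = 0.00471).

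The 4 genes of factors that act on the RPN4 promoter went in different directions. PDR1 and PDR3 encode related activators of multidrug resistance, and YAP1 the activator of the oxidative stress response. PDR1 had 1797 and 1778 normalised reads after Nab3 depletion, 1887 and 1954 after Nrd1 depletion, and 2321 and 2447 in the cassette libraries. PDR3 had 1526 and 1597 normalised reads after Nab3 depletion, 2042 and 2107 after Nrd1 depletion, and 1154 and 1180.2 in the cassette libraries. Every depleted library was below the cassette for PDR1 and above it for PDR3. PDR1 fell after Nab3 depletion, -0.42 ± 0.05 (SE, adjusted p = 3.16e-05), and after Nrd1 depletion, -0.31 ± 0.06 (SE, adjusted p = 0.00781). PDR3 rose after Nab3 depletion, 0.42 ± 0.06 (SE, adjusted p = 6.69e-05), and after Nrd1 depletion, 0.83 ± 0.06 (SE, adjusted p = 0.000209). YAP1 fell after Nab3 depletion, -0.30 ± 0.06 (SE, adjusted p = 0.000873), and had a value of -0.15 after Nrd1 depletion (adjusted p = 0.0876), with an adjusted p of 0.107 for the difference between the depletions. HSF1, the heat shock factor gene, passed the test in neither comparison. Among the named genes outside the members, the calls after Nrd1 depletion were lost without cassette library 1 for BLM10, ECM29, FUB1, PDR1, RAD23, RAD6 and UBC5, and without cassette library 2 for FUB1, PDR1, RAD23 and TMA17. After Nab3 depletion the call of FUB1 was lost without cassette library 1 and without Nab3-depleted library 3. It was also lost in that comparison without the mean-variance trend and with DESeq2. After Nrd1 depletion the calls of FUB1 and RAD23 were lost without the trend, and that of RAD23 also with DESeq2.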

How the data were processed

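Values came from 2 deposited tables, 1 for each depletion, each with the same cassette libraries. The authors deposited a normalised signal per gene, reads divided by 1 size factor per library, and 100% of the values were whole numbers of reads, to 0.01 reads, once divided by it. Bowtie 1.1.1, DESeq, R64 and sacCer3 stand, without settings, in the list per the submitters' processing notes. The sources used here do not give how reads were counted by strand or at repeated sequences. The authors' comparison tables hold log2 fold changes, adjusted p-values, other annotation such as gene length, and a column of gene groups, per the file headers.

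The members and lists were chosen with earlier results of these data known. The Nab3-FRB columns are numbered 2 and 3 but the titles 1 and 2, so they were matched to their group and not to single samples. Tests used limma 3.58.1 in R 4.3.3 on log2(value + 1), with a mean of at least 10, a mean-variance trend in eBayes and Benjamini-Hochberg adjustment over all features tested. Fold changes on this scale are too small for low genes, and their SE is that of limma. All 35 members passed the filter. Each depletion was tested in its own table. The Nrd1 values were multiplied by 1.18, the ratio of the cassette values in the 2 tables, to place the 6 libraries on 1 scale. The cassette reads were equal in both tables for all 6677 features. Alternatives used edgeR 4.0.16 and DESeq2 1.42.0 on the recovered reads. The fits were tested on simulated data with 100 genes changed at each fold. At 1.2-fold they recovered 50 for Nab3 depletion, 41 for Nrd1 depletion and 14 between the depletions. At 1.5-fold the numbers were 86, 89 and 83. A gene that did not pass the threshold can therefore still differ by a small fold. Genes left unchanged in these data were also called. They numbered 7 of 6160 for Nab3 depletion, 46 of 6147 for Nrd1 depletion and 10 of 6185 between the depletions. The share of false calls among the members called here was not tested. Windows were read from the R64 genome sequence with Python 3.11.15 and pandas 2.3.3, because no table of promoters was given, and figures were drawn with matplotlib 3.10.9.

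Members were named in full if called with a log2 fold change of at least 0.3 in size, or if highest or lowest of a subcomplex, with RPN4 and UMP1 always included. PRE1, PRE6 and RPN3 fell outside that rule and were added after their values were seen. Up to 6 called genes were named from each other list, those with the largest change first. Cassette and Nrd1-FRB libraries of the same number did not deviate together (Pearson r = 0.0108 over 6330 features, which are not independent), so the numbers were not used as pairs.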

Additional observations from a re-analysis of the deposited data

Results flagged for a closer look

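For 7 members the 2 depletions differed in the model with all 6 libraries (limma, adjusted p under 0.05), 2 of 35 being lower and 5 higher after Nab3 depletion. Over all 6385 features 8.91% were lower and 12.1% higher, so the members' shares were near those of all features. The log2 difference, Nab3 depletion minus Nrd1 depletion, was -0.26 for PRE8 and -0.21 for PRE4. It was 0.30 for RPT1, 0.35 for RPT5, 0.32 for RPN13, 0.28 for RPN5 and 0.32 for SEM1. Nrd1-depleted library 1 was below library 2 for 35 of 35 members, and the part of that spread in these differences was not tested. The calls of these members under other libraries and settings are given with the comparison.

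Of 49 other genes of the pathway, 6 were lower and 4 higher after Nab3 depletion than after Nrd1 depletion. Among all 6385 features 8.91% were lower and 12.1% higher, so these counts too were near the shares of all features. TMA17 differed most between the depletions, by 1.00, with a rise after Nab3 depletion and a fall after Nrd1 depletion. UBI4 differed by 0.71, SPG5 by 0.58 and RAD6 by 0.33, each being higher after Nab3 depletion than after Nrd1 depletion. PDR3 (-0.41), UBR2 (-0.29), SAN1 (-0.27), RAD23 (-0.25), SSM4 (-0.23) and UBA1 (-0.22) were lower after Nab3 depletion than after Nrd1 depletion. UBR2, SSM4 and UBA1 were named after their values were seen. Without either Nab3-depleted library in turn RAD6, SAN1, RAD23, SSM4 and UBA1 lost this call, and UBR2 lost it without Nab3-depleted library 2. RAD23, SSM4 and UBA1 also lost it without either cassette library in turn, and RAD23 without Nrd1-depleted library 2. Without the mean-variance trend RAD6, RAD23, SSM4 and UBA1 lost it, and RAD23 lost it with DESeq2.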

How the results depend on the processing

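Members lower after Nab3 depletion numbered 28 to 32 over all alternatives, and the member median stayed below 0 in both comparisons with the cassette. No called value changed sign. On recovered reads edgeR called 31 members lower after Nab3 depletion and 30 after Nrd1 depletion, and DESeq2 30 and 26. After Nrd1 depletion, 17 members were lower without the mean-variance trend, and leaving out 1 library at a time gave 10 to 34 members lower and a median log2 fold change of -0.47 to -0.28, lowest without Nrd1-depleted library 2. Between the depletions, members lower after Nab3 depletion numbered 0 without the trend, 1 with TMM scaling, 1 with edgeR and 0 with DESeq2. Those higher numbered 1 without the trend and 2 with scaling to the table total. Leaving out 1 library gave 0 to 3 members lower, 0 to 18 higher and a median difference of -0.011 to 0.19. In these fits a lone library is assumed to vary like the other groups. The cause was not tested. With the replicate block, 30 members were lower after Nrd1 depletion, 28 of them as before, with PRE7 and PRE8 lost and PRE1 and PRE3 gained. No replicate block was possible for Nab3 depletion or between the depletions, because the Nab3-FRB columns carry other numbers than the sample titles. Over all features, those lower after Nab3 depletion numbered 1187, against 766 with DESeq2, 721 without the trend and 649 without cassette library 1. Those lower after Nrd1 depletion numbered 1128, against 703 without the trend, and leaving out 1 library gave 265 to 1866 lower and 375 to 1751 higher, against 1110 higher with all libraries. Between the depletions 569 were lower and 772 higher, against 339 and 436 without the trend, and leaving out 1 library gave 134 to 921 lower and 277 to 1158 higher. Every member had at least 561 reads in each library, and the part of counting error in the spread between libraries was not tested.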
